A study of Mus musculus with 2 samples.

Results

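The genes described here are the ligand, receptors and signal carriers of the transforming growth factor beta (TGF-beta) pathway in mouse bone marrow cells that expressed either of 2 forms of EVI1. They are the ligand gene Tgfb1, the receptor genes Tgfbr1 and Tgfbr2, the decoy receptor gene Bambi and the SMAD genes Smad1, Smad2, Smad3, Smad4, Smad5 and Smad7. These 10 genes were named as a list and found by Ensembl ID among the 55487 gene IDs of the deposited table of read counts. All 10 were in the table, and all 10 reached at least 1 scaled CPM (a read count scaled for library size with edgeR's TMM method) in a library. Smad3 reached that level in EVI1+18 alone.

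EVI1 is a zinc finger transcription factor encoded at the Mecom locus, and it is known to bind SMAD3 and to dampen TGF-beta responses. The starting cells, marrow cells depleted of lineage markers from C57BL/6 mice, were transduced with the retroviral vector pMYs-IG carrying HA-tagged EVI1-WT in one culture and HA-tagged EVI1+18, an aberrantly spliced form, in the other. Cells were sorted for GFP 3 days after infection, and 10000 of them were grown in MethoCult M3434 for about 3 weeks. Both groups therefore overexpressed an EVI1 protein from a retrovirus, and a culture without it was not analysed here. Each form had 1 library, with 20480447 counts for EVI1-WT and 20981903 for EVI1+18, and nothing below could be checked in a replicate. Intervals cover counting error only and describe these libraries, not the vectors. The question the comparison addresses is how transcription differs between cells with the aberrant and the normal splice form.

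TGF-beta is secreted in a latent form, held by carrier and anchor proteins, and has to be cut and released before it binds. The active ligand joins a type II receptor to a type I receptor kinase, which phosphorylates the receptor SMADs. SMAD2 and SMAD3 serve TGF-beta and activin, SMAD1 and SMAD5 serve the bone morphogenetic proteins (BMPs), SMAD4 is the shared partner that both kinds need, and SMAD6 and SMAD7 block the receptors. In blood-forming tissue TGF-beta is known as a brake on the cycling of stem and early progenitor cells.

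Among the 10 genes, Smad3 and Bambi were higher in EVI1+18, Tgfbr1 was lower, and the other 7 were less than 2-fold apart or could not be placed beyond 2-fold. Smad3 went from 2 counts in EVI1-WT to 75 in EVI1+18, a ratio of 35.0 with a 95% exact (Clopper-Pearson) counting interval of 9.36 to 294. Bambi was 3.71-fold higher (2.61 to 5.39) and Tgfbr1 2.38-fold lower (2.2 to 2.57). A gene was called 2-fold apart where the whole interval lay above 2 or below 1/2. Of the 10 genes 2 were called higher and 1 lower, and of all 13183 genes tested at that minimum 10.1% were called, 5.05% as higher and 5.10% as lower. The median log2 ratio was -0.30 over the 10 genes and 0.01 over all tested genes. The 10 genes were listed with earlier results of these libraries known, so these counts are a description.

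The start regions of Smad3 and Tgfbr1 are shown because these genes, called in opposite directions, both have a RefSeq transcript start in CpG-rich sequence. The 250 bases before that start (GRCm38.p6), for Tgfbr1 the first of its 2 RefSeq starts, are given 5′ to 3′ on the gene's strand, chr9:63757995-63758244 (minus) for Smad3 and chr4:47352972-47353221 (plus) for Tgfbr1, with each GC box (GGGCGG on either strand, the motif of the general activator SP1) in capitals.
Smad3: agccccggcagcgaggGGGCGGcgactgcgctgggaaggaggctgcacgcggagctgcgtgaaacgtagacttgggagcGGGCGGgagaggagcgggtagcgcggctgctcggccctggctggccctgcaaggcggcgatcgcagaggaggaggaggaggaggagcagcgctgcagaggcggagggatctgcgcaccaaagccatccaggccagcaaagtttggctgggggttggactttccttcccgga
Tgfbr1: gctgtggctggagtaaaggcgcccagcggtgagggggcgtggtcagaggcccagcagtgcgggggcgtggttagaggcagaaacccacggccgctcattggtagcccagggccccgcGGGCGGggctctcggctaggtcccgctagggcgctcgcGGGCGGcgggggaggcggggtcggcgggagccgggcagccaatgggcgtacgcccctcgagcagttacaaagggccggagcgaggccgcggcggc

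Smad3 held 22 CpG dinucleotides in this window and Tgfbr1 29, against a median of 6 over 27025 RefSeq promoter windows of the same length. Each had 2 GC boxes, a motif searched after the values were seen and present in 32.9% of all windows. Neither shown window held the GATA motifs AGATAA (10.3% of all windows) and TGATAA (8.16%), the EVI1 motifs GACAAGATA (0.115%) and GAAGATGAG (0.318%), or the SMAD motifs GTCTAGAC (0.174%) and CAGACA (17.1%), each on both strands. AGATAA and GACAAGATA share 5 bases and can overlap. The absence of these letters concerns the shown windows alone. The window before the other RefSeq start of Tgfbr1 (chr4:47385966-47386215) held 3 CpG, no GC box and 1 CAGACA. RefSeq windows are described for 6 of the 10 genes (Tgfb1, Tgfbr1, Tgfbr2, Smad1, Smad3 and Smad5). Windows of Bambi, Smad2, Smad4 and Smad7 are not reported here. CpG-rich starts were not particular to the 2 shown genes. Tgfb1 had 21 CpG and 5 GC boxes, and Smad1 had 25 CpG and 1 GC box. The Smad5 windows had 22, 27 and 27 CpG, with 1, 1 and 7 GC boxes. Tgfbr2, with 12 CpG, had 0 GC boxes. Tgfb1, Smad1, Smad5 and Tgfbr2 were not called 2-fold apart.

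The colonies differed widely in lineage genes. Markers of red cells (15 of 15 tested) summed to 1799 scaled CPM for EVI1-WT and 13825 for EVI1+18, with 13 called higher, 0 lower and none at 0 counts. Megakaryocyte and platelet markers (10 of 12 tested) summed to 663 and 1510, with 7 higher and 1 lower, and Gp1bb and Tubb1 were among those at 0 counts in EVI1-WT. Mast cell and basophil markers (10 of 12 tested) summed to 12418 and 1954, with 7 lower and 2 higher, and Tpsab1 was at 0 in both. Eosinophil markers summed to 855 and 173, with 4 of 5 tested called lower and 1 higher, and Ear1 was at 0 in EVI1+18. Neutrophil markers summed to 3744 and 1880, with 6 of 12 tested called lower and 0 higher. Monocyte and macrophage markers summed to 1289 and 1711, with 3 of 10 tested called higher and 2 lower, and C1qa was at 0 in both. Gpnmb alone gave 242 and 1214 of these scaled CPM. Of the 10 tested, 5 had a ratio above 1 and 5 below, among the latter Ly6c2 (463 and 101) and Adgre1 (246 and 94.4). Of 8 markers of stem and progenitor cells, Kit, Slamf1 and Mllt3 were called higher in EVI1+18. The progenitor receptors Kit and Flt3 had 63 and 5 counts in EVI1-WT and 254 and 5 in EVI1+18, and the stem cell factor Hlf had 0 in both. Cd34 had 90 and 132 counts, Procr 54 and 113, Slamf1 10 and 569, Mllt3 227 and 841, and the pan-leukocyte gene Ptprc 6943 and 4896. Stromal and endothelial markers summed to 4.99 and 1.40 scaled CPM, and of 11 lymphoid markers 7 lacked any read with EVI1-WT and 8 with EVI1+18. Lymphoid markers summed to 30.9 and 30.1 scaled CPM, and the 1 tested, Il7r, had 608 and 640 counts. In such bulk libraries, fewer cells of a type and less RNA per cell cannot be told apart, and the part of these lineage shifts in the values below was not tested.

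Tgfb1 (ENSMUSG00000002603; GRCm38 chromosome 7, 25687002 to 25705077, plus strand) encodes the main TGF-beta ligand of blood cells. The EVI1-WT library held 13760 of its reads (687 scaled CPM) and the EVI1+18 library 11069 (516 scaled CPM), which is 1.33-fold lower (1.30 to 1.37), a small difference with a narrow interval because the gene is read deeply. Per length, with counts divided by the exon length of all transcripts and scaled to a fixed total (TPM), Tgfb1 stood at 349 in EVI1-WT and 265 in EVI1+18. Divided by the longest transcript instead, these levels were 540 and 407. It was the most abundant of the 10 genes in both libraries, above 97.1% and 96.3% of tested genes.

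Tgfbr1 (ENSMUSG00000007613; chromosome 4, 47353222 to 47414931, plus strand) encodes the type I receptor kinase that phosphorylates SMAD2 and SMAD3. Its counts were 2036 for EVI1-WT and 917 for EVI1+18, which is 102 and 42.7 scaled CPM. Its ratio, given above, was lower than that of all but 6.14% of tested genes. Tgfbr2 (ENSMUSG00000032440; chromosome 9, 116084293 to 116175360, minus strand) encodes the type II receptor that binds the ligand first. It had 610 and 508 counts, or 30.5 and 23.7 scaled CPM, and was 1.29-fold lower in EVI1+18 (1.14 to 1.45). The receptor chains were therefore unequally lower. Per length, Tgfbr1 stood at 4.18 times Tgfbr2 in EVI1-WT and at 2.26 times in EVI1+18. This ratio within a library does not depend on library scaling, and it was 1.85-fold lower in EVI1+18 (exact conditional counting interval 1.60 to 2.13). The ratio of ligand to type I receptor moved the other way, from 8.76 to 15.6 per length, and was 1.79-fold higher (1.64 to 1.94). With the longest transcript as length these ratios were 15.1 and 27.0, while the change between the libraries does not depend on length.

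Bambi (ENSMUSG00000024232; chromosome 18, 3507923 to 3516404, plus strand) encodes a receptor-like protein without a kinase domain that blocks type I receptors. Its counts were 40 for EVI1-WT (1.997 scaled CPM) and 159 for EVI1+18 (7.41 scaled CPM). Its level was low in both libraries, at 1.01 and 3.78 TPM per length, above 7.37% and 20.4% of tested genes. Per length, Bambi stood at 0.0253 of Tgfbr1 in EVI1-WT and at 0.223 in EVI1+18, an 8.83-fold higher ratio (6.14 to 12.9). This pair was chosen after its values were seen.

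**Figure D1:**
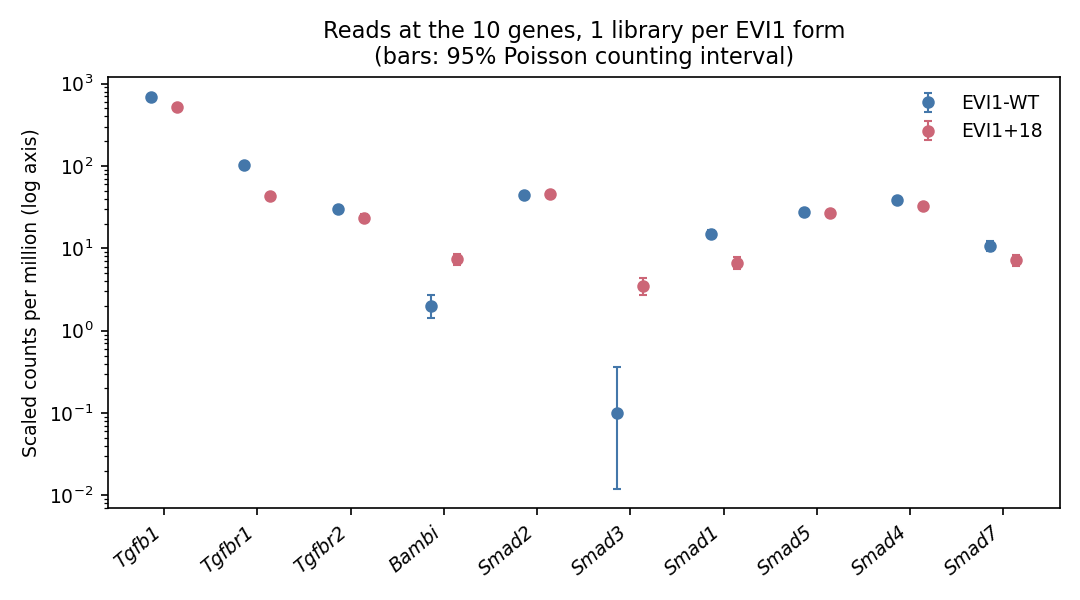
Scaled CPM (log axis) of the 10 genes in the EVI1-WT (blue) and EVI1+18 (red) libraries, with 95% Poisson counting intervals. Smad3 shows the widest gap, 0.0999 against 3.50, while the points of Smad2 and Smad5 nearly coincide.

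Smad2 and Smad3, the receptor SMADs that TGF-beta activates, differed in pattern. Smad2 (ENSMUSG00000024563; chromosome 18, 76241580 to 76310963, plus strand) had 900 and 973 counts, which is 44.9 and 45.3 scaled CPM. Its ratio of 1.01 had an interval that included equality (0.921 to 1.11). Smad3 (ENSMUSG00000032402; chromosome 9, 63646767 to 63757994, minus strand) stood at 0.0999 scaled CPM with EVI1-WT, below the level of 3 counts (0.150), and at 3.50 with EVI1+18. The lower library thus held reads that barely set it apart from 0, and the upper bound of its interval is correspondingly loose. Among the 2598 tested genes whose higher library lay between 1 and 5 scaled CPM, the range Smad3 falls in, 16.9% were called.

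Even in EVI1+18 Smad3 was the scarcer of these SMADs. Per length, Smad2 stood at 284 times Smad3 in EVI1-WT and at 8.19 times in EVI1+18. The ratio of Smad3 to Smad2 was 34.7-fold higher in EVI1+18 (9.22 to 292). No 50-base word of the annotated Smad3 transcripts occurs in a transcript of another gene, and no annotated gene overlaps Smad3. The same held for the words of Smad1, Smad2, Smad4, Smad7 and Bambi, and for the other 4 genes at most 0.769% of words were shared.

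Smad1 (ENSMUSG00000031681; chromosome 8, 79338395 to 79399518, minus strand), a carrier of BMP signals, had 299 counts with EVI1-WT and 142 with EVI1+18, or 14.9 and 6.62 scaled CPM. It was 2.26-fold lower in EVI1+18, with an interval of 1.84 to 2.77 that reached below 2, so it was not called. Smad5 (ENSMUSG00000021540; chromosome 13, 56703010 to 56742377, plus strand), which acts in the same branch, had 546 and 584 counts, or 27.3 and 27.2 scaled CPM. Its ratio of 0.998 (0.887 to 1.12) included equality, and its direction differed between ways of scaling the libraries. Smad9, the remaining BMP SMAD and no member of the list, had 0 counts in both. Reads of Smad2 and Smad3 together, set against those of Smad1 and Smad5, were 1.35-fold higher in EVI1+18 (1.18 to 1.55).

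Smad4 (ENSMUSG00000024515; chromosome 18, 73639009 to 73703780, minus strand), the shared partner, had 782 and 710 counts, or 39.0 and 33.1 scaled CPM. It was 1.18-fold lower in EVI1+18 (1.06 to 1.31). Smad7 (ENSMUSG00000025880; chromosome 18, 75367529 to 75395935, plus strand), an inhibitor that TGF-beta itself induces, had 216 and 154 counts, or 10.8 and 7.18 scaled CPM. It was 1.503-fold lower (1.22 to 1.86). Both intervals lay off equality, as did those of 66.2% of tested genes. The ratio of Smad7 to Smad4 was 1.27-fold lower in EVI1+18, with an interval of 1.01 to 1.62. Smad6, the other inhibitory SMAD, had 36 counts in each library.

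**Figure D2:**
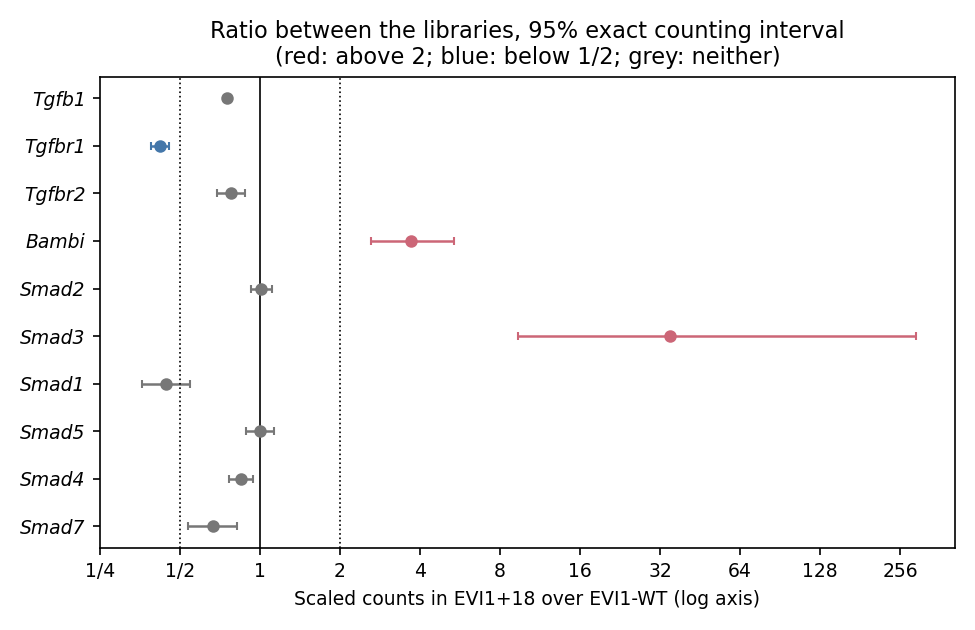
Ratio of scaled counts, EVI1+18 over EVI1-WT (log axis), with 95% exact counting intervals; solid line, equality; dotted lines, 1/2 and 2. Smad3 and Bambi lie wholly above 2 and Tgfbr1 wholly below 1/2, while the interval of Smad1 crosses 1/2.

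Ordered by level per length, Tgfb1 came first and Smad3 last in both libraries. In EVI1-WT it ran from Tgfb1 through Tgfbr1 (39.8 TPM), Smad4 (26.9), Smad2 (13.1), Tgfbr2 (9.52), Smad5 (9.40), Smad7 (6.10), Smad1 (6.10) and Bambi (1.01) to Smad3 (0.0461). Tgfbr2 and Smad5 were not apart within counting error, nor were Smad7 and Smad1. In EVI1+18 it ran from Tgfb1 through Smad4 (23.1 TPM), Tgfbr1 (16.9), Smad2 (13.4), Smad5 (9.50), Tgfbr2 (7.49), Smad7 (4.11), Bambi (3.78) and Smad1 (2.74) to Smad3 (1.63). There, Smad7 and Bambi, and Bambi and Smad1, had overlapping intervals. Tgfbr1 and Smad4 changed places, with intervals that were apart in both libraries. The middle of the order depended on the length used: with the longest transcript, Smad1 (7.99 TPM) and Smad5 (8.37) stood above Tgfbr2 (7.61), and Smad1 above Smad7 (5.10), in EVI1-WT. In EVI1+18, Smad1 then stood above Smad7 and Bambi (3.56 against 3.41 and 2.97).

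The shared partner held the largest part of the SMAD transcripts in both libraries. The 8 SMAD genes summed to 63.1 TPM in EVI1-WT and 55.8 in EVI1+18. Smad4 made up 42.7% of the pool in EVI1-WT and 41.4% in EVI1+18. Smad2 and Smad3 together made up 20.8% and 26.9%, of which Smad3 gave 0.0731% and 2.93% of the pool. Smad1, Smad5 and Smad9 made up 24.6% and 21.9%, and the inhibitory Smad6 and Smad7 11.9% and 9.80%.

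**Figure D3:**
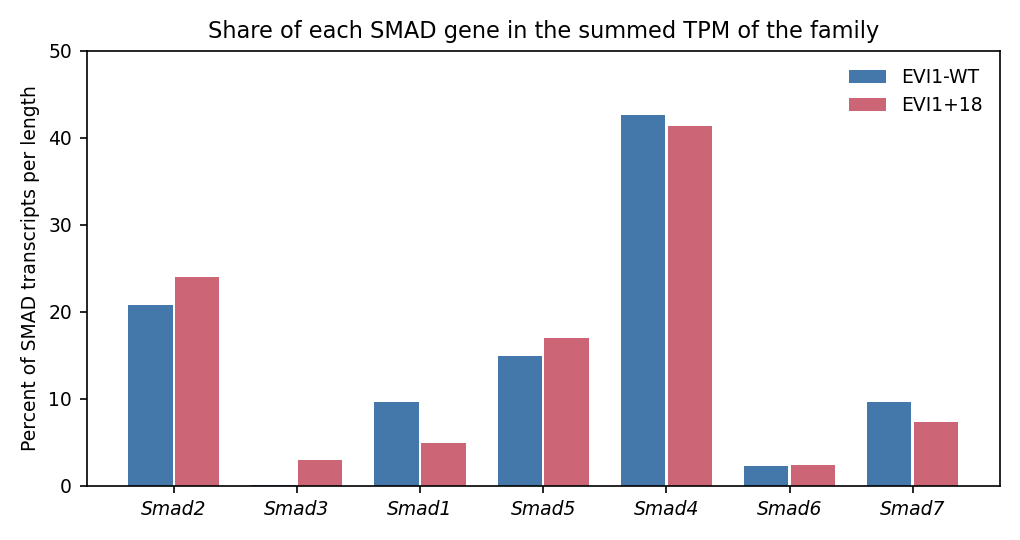
Share of each SMAD gene in the family's summed TPM (percent) in EVI1-WT (blue) and EVI1+18 (red), 1 library each; Smad9 had 0 counts and is left out. Smad4 holds the largest share in both libraries, at 42.7% and 41.4%.

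The rest of the pathway was described with 9 lists by role, which hold 126 genes, the 10 included. Of these, 90 were tested, 11 were called higher and 11 lower, and their median log2 ratio was -0.07. Without the 10 genes, 9 of 80 were higher and 10 lower, which is 23.8% called against 10.1% of all tested genes. Of the genes called, Ltbp2, Eng, Cdkn1c and Atoh8 reached 1 scaled CPM in EVI1+18 alone, and Pmepa1 in EVI1-WT alone. Over all tested genes the called share varied with the level in the higher library. It was 16.9% between 1 and 5 scaled CPM and 6.10% between 20 and 100. The lists were chosen with earlier results of these libraries known, so the share of 23.8% is a description. The calls lay among ligands, receptors, SMADs, their regulators and response genes, and none lay among the nuclear partners or the SMAD-independent branch.

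In the list of TGF-beta ligands and activators 7 of 14 genes were tested, of which 2 were called higher and 2 lower; the median log2 ratio was -0.44. Furin, the protease that cuts the TGF-beta precursor, had 31700 counts with EVI1-WT and 5128 with EVI1+18 and was 6.62-fold lower (6.43 to 6.82). Thbs1, thrombospondin, which releases active ligand from its latent complex, was lower as well, with 60285 and 17964 counts. Nrros, which anchors latent TGF-beta on myeloid cells, was 1.36-fold lower (1.30 to 1.42). Lrrc32, which does so on platelets and regulatory T cells, went the other way, with 40 and 138 counts and a 3.22-fold higher level (2.25 to 4.70). Ltbp2, of the latent TGF-beta binding protein family, had 19 and 73 counts (3.59-fold higher, 2.14 to 6.29). The ligand genes Tgfb2 and Tgfb3 had at most 4 counts in a library. Lrrc32 was higher in the library in which the platelet markers summed to 1510 against 663, and a link between them was not tested.

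Of 14 genes of activin, BMP and GDF ligands 3 were tested. Gdf15, a stress-induced ligand also released by maturing red-cell precursors, had 102 and 450 counts, a 4.12-fold higher level in EVI1+18 (3.31 to 5.16). Gdf11, which signals through SMAD2 and SMAD3, had 291 and 70 counts and was 4.45-fold lower (3.42 to 5.87). Inhba, the activin A subunit, had 392 and 399 counts, a fold of 1.05 lower whose interval spanned 1 (0.913 to 1.21). The red-cell markers stood at 13825 against 1799 scaled CPM beside the higher Gdf15, and a link between them was not tested.

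Among type I, type II and co-receptors, 11 of 18 were tested, of which 2 were called higher and 3 lower; the median log2 ratio was -0.50. The type I receptors called lower besides Tgfbr1 were Acvrl1, with 150 and 28 counts (5.74-fold, 3.81 to 8.93), and Acvr1, with 370 and 131 counts (3.03-fold, 2.47 to 3.72). Both phosphorylate the BMP SMADs. The BMP type I receptor Bmpr1a had 542 and 559 counts, a fold of 1.04 lower whose interval included equality (0.921 to 1.17). Eng, endoglin, a co-receptor for TGF-beta and BMPs that stem cells and early red-cell precursors also carry, had 9 and 103 counts, a 10.7-fold higher level (5.41 to 24.0). Of the 11 tested, 8 had a ratio below 1 and 3 above.

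The 18 tested regulators of receptors and SMADs held 2 called lower and 0 higher, and had a median log2 ratio of -0.17. Nedd4l, a ubiquitin ligase that marks activated SMAD2 and SMAD3 for breakdown, had 1527 and 740 counts and was 2.21-fold lower (2.02 to 2.42). Pmepa1, a TGF-beta-induced inhibitor, had 23 and 2 counts, a 12.3-fold ratio with a loose interval (3.04 to 108). Smurf1, a ligase for the receptors and for SMAD1 and SMAD5, was 1.81-fold lower (1.64 to 2.005). Of 16 nuclear partners and co-repressors none was called, with a median of -0.06. Mecom itself held 3612 and 4481 counts (1.16-fold higher, 1.11 to 1.21), and its reads may come from the vector or from the cell's own gene. Ctbp1, the co-repressor that EVI1 recruits, was 1.35-fold higher (1.29 to 1.41) and its relative Ctbp2 1.65-fold (1.45 to 1.87). The SKI family members, which repress SMAD targets, were Ski, at 1338 and 1328 counts, and Skil, which was 1.45-fold higher (1.26 to 1.67).

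**Figure D4:**
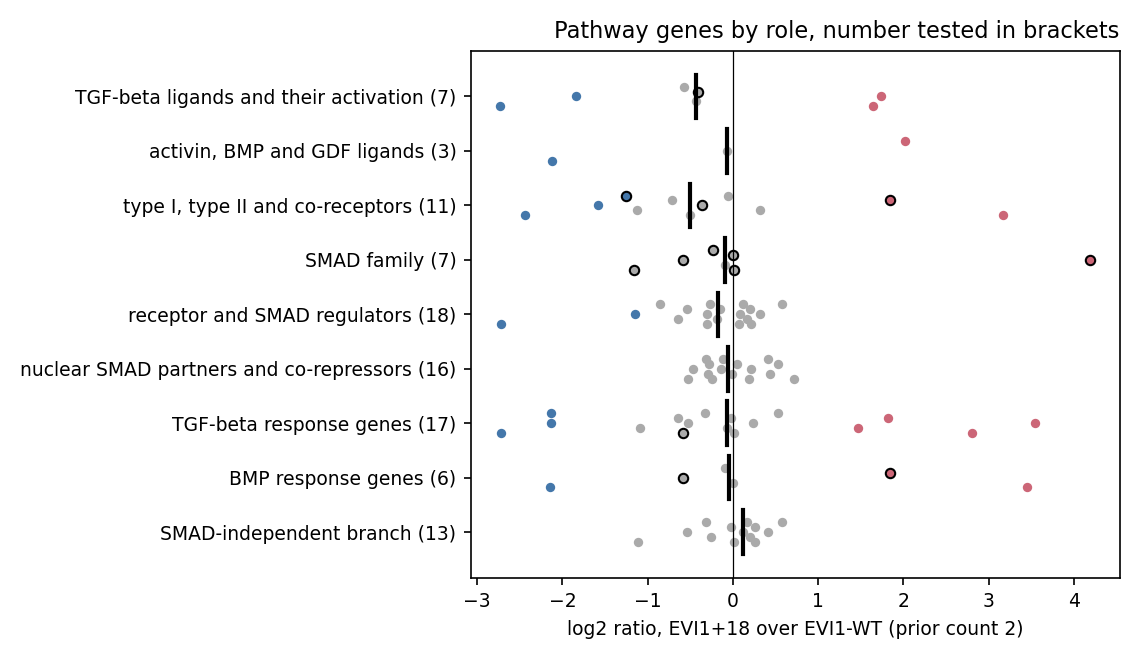
Log2 ratio of EVI1+18 over EVI1-WT for each tested gene (dots) of the 9 lists, with red called higher, blue called lower, grey neither, black outline for the 10 genes and a bar at each list's median. Ligand, receptor and response lists spread to both sides, while the 16 nuclear partners and 13 SMAD-independent genes stay without a call.

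Genes known to respond to TGF-beta split in direction. Of 17 tested, 4 were called higher and 3 lower, and the median log2 ratio was -0.07. Cdkn1c, a cell-cycle inhibitor that keeps stem cells quiescent, had 17 and 234 counts, a 12.8-fold higher level in EVI1+18 (7.85 to 22.4). Tgfbi, a secreted matrix protein, had 96 and 732 counts (7.12-fold higher, 5.75 to 8.90). The transcription regulator Tsc22d1 was 2.76-fold higher (2.57 to 2.97) and Atf3 3.55-fold higher. Itgae, the integrin of mucosal lymphocytes and mast cells, had 593 and 143 counts (4.44-fold lower, 3.70 to 5.37). Mast cell and basophil markers summed to 12418 and 1954 scaled CPM, and a link to Itgae was not tested. Pmepa1, described above, was also called lower. Cdkn2b, another cell-cycle inhibitor, was 2.14-fold lower (1.85 to 2.47) and not called, and Klf10 had 693 and 734 counts, with an interval that included equality (fold of 1.01 lower, 0.910 to 1.12).

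Of 11 BMP response genes 6 were tested, with 2 higher and 1 lower. Atoh8, a transcription factor, had 2 and 44 counts, a 20.5-fold ratio (5.36 to 175), and Bambi, itself a response gene, was the other. Id2, which blocks E proteins, had 3610 and 869 counts, a 4.45-fold lower level (4.13 to 4.80), while its relative Id1 had 1394 and 1492 counts (fold of 1.001 lower, 0.930 to 1.08). Of 13 genes of the SMAD-independent branch, which runs from the receptors to MAP kinases, none was called and the median log2 ratio was 0.12. Rhoa was 1.15-fold higher (1.11 to 1.19), Tab2 1.12-fold higher (1.08 to 1.17) and the TGF-beta activated kinase Map3k7 1.45-fold lower (1.35 to 1.56).

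The surroundings of the 10 genes were examined because position had no part in their choice. Within 250 kb of a member lay 112 other annotated genes, of which 37 were tested, 1 was called higher and 5 lower (16.2% called, against 10.1% of all tested genes and 11.5% of the 61 tested within 500 kb). Around Smad3, 4 neighbours were tested and none was called higher. Smad6, whose start lies 264 kb before that of Smad3, had a ratio of 0.933 with a wide interval around equality (0.571 to 1.52). Aagab had a ratio of 0.807 (0.751 to 0.868) and 2300009A05Rik one of 1.43 (0.870 to 2.40). Iqch was called lower, with 38 and 1 counts. Near Tgfbr1, the collagen gene Col15a1 was lower, with 266 and 65 counts, while Alg2 had a ratio of 0.919 (0.830 to 1.02) and Sec61b one of 0.778 (0.743 to 0.815). Near Tgfb1 the receptor kinase gene Axl was lower, with 933 and 295 counts, as was Cyp2s1, with 36 and 3. Iqch and Cyp2s1 reached 1 scaled CPM in EVI1-WT alone. Near Bambi the cyclic AMP response modulator Crem was lower, with 416 and 165 counts. The 1 neighbour called higher was Tgfbi, whose start lies 93.5 kb before that of Smad5.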

How the data were processed

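The values are read counts per Ensembl gene, which the authors deposited without normalization, 1 column per culture, and both columns were matched to samples by name (0 columns unmapped). The build was GRCm38, and the tools named are featureCounts and Subread, HISAT2 2.2.1, edgeR and SAMtools, per the submitters' processing notes. The sources used here give no settings, annotation release or strand use, so sense and antisense reads of overlapping genes may be mixed. Of the gene IDs, 55227 matched GENCODE M21 (GRCm38), which gave symbols, coordinates and exon lengths. Promoter sequences and the alias Ctgf for Ccn2 came from RefSeq (GRCm38.p6).

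Libraries were scaled with edgeR 4.0.16 (TMM, R 4.3.3). With 1 library per group edgeR's quasi-likelihood test could not be fitted, so each ratio has an exact counting interval (scipy 1.17.1), and no p-value is given. Folds use no prior count; log2 ratios use a prior count of 2. Totals were 20480447 and 20981903 counts, and 3 counts, the most that a count of 0 allows, equal 0.150 and 0.140 scaled CPM. The intervals cover counting error only. Reads carry no molecular identifiers, so amplified copies of a molecule may be counted as separate reads, and the intervals may be too narrow. TPM was computed from counts and union exon lengths. The calling rule was tried on simulated counts that held counting error alone, so the trial does not cover variation between cultures. Members, lists and rules were chosen with earlier results of these data known. Named in each list were up to 4 called genes per direction by the bound nearest to 1, or the 2 with the most scaled CPM where none was called; other list members and neighbours were named after their values were seen. Some genes that the rule takes are not reported here. With 2 libraries, no likeness of pattern between genes was measured. Scaling, filter, prior count, interval, fold, length and window alternatives were tried.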

Additional observations from a re-analysis of the deposited data

How the results depend on the processing

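The calls of Smad3, Bambi and Tgfbr1 were the same with DESeq2 size factors, total counts, upper quartile scaling, TMM without marker genes, no filter and a 99% interval. Total counts moved the ratio of Tgfb1 from 0.751 to 0.785, past its interval. Smad5 lay at 0.998 with TMM and at 1.04 with total counts, the change of direction named above. With a filter at 5 scaled CPM Smad3 was not tested, 2 of the 10 genes were called, and over all genes 431 instead of 666 were higher. A 1.5-fold call gave 2383 genes (1093 higher, 1290 lower) instead of 1338, and added Smad1 as lower, for 4 of 10. A 4-fold call gave 512 genes (294 higher, 218 lower), 7 instead of 22 of the pathway lists and 1 of the 10, Smad3. Called neighbours were 5 of 27 tested within 100 kb (18.5%), 6 of 37 within 250 kb (16.2%) and 7 of 61 within 500 kb (11.5%), the last near the 10.1% of all genes. The order per length changed with the longest transcript, as given above, while 14 adjacent pairs were apart with either length. Leaving out a replicate was not possible with 1 library per group. No paired analysis was possible because each group has 1 library. Depth limits Smad3 most, with 2 counts in EVI1-WT.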
